A study of Mus musculus with 10 samples.

Results

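STAT proteins (signal transducers and activators of transcription) are transcription factors that wait in the cytoplasm until a cytokine receptor's Janus kinase phosphorylates them. They then pair, enter the nucleus and bind short DNA elements near their target genes. In blood formation, STAT5A and STAT5B carry signals of thrombopoietin, interleukin-3 and GM-CSF, STAT3 those of interleukin-6, G-CSF and FLT3 ligand, STAT2 those of type I interferon, STAT4 those of interleukin-12, and STAT6 those of interleukin-4 and interleukin-13.

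Accessible chromatin near Stat2, Stat3, Stat4, Stat5a, Stat5b and Stat6 was described in sorted mouse bone marrow progenitors. Peaks of all 10 ATAC-seq lists on chromosomes 1 to 19 and X were merged wherever they overlapped by 1 bp, and regions centred inside a STAT gene or within 50 kb of it were taken. This gave 92 of 114366 merged regions. The rule used gene position and no measured level. Detection in a library means that at least 1 of its peaks overlaps the region.

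All animals were C57BL/6, and each of the 5 groups had 2 libraries. All cells were sorted as negative for lineage markers. Wild-type groups were long-term stem cells (LT-HSC; positive for CD117, Sca-1 and CD150, negative for CD48 and CD135), lymphoid-primed multipotent progenitors (LMPP; positive for CD117, Sca-1 and CD135), monocyte-dendritic cell progenitors (MDP; positive for CD117 and CD115, negative for Sca-1 and IL-7R) and common dendritic cell progenitors (CDP; as MDP with intermediate CD117 and with CD135). The last group, IRF8KO MDP, carried the MDP surface markers in IRF8-deficient animals, which lack a transcription factor needed for monocyte and dendritic cell development. Titles placed the libraries in groups. For LMPP the cell type field reads short-term stem cells instead, and no allele, age or animal is named in the labels. The knockout libraries are not among those the design text calls biological duplicates, so differences here are set against the spread between 2 libraries, which may be technical.

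Library quality differed between groups. Total tags ranged from 4790046 to 10166833, with the CDP libraries deepest at 10166833 and 7985428. LT-HSC replicate 1 stood apart with 31325 peaks and 19.3% of tags within peaks. The other 9 lists held 50728 to 69598 peaks, and the IRF8KO MDP lists held 50728 and 54277 against 62130 and 64515 in WT MDP. Longer lists mostly detected more of all merged regions, but LMPP replicate 2 (64181 peaks) detected 62422 and WT MDP replicate 2 (64515 peaks) 61966. For STAT regions the order was looser: LMPP replicate 1 (63349 peaks) detected 45 and WT MDP replicate 1 (62130 peaks) 58. The part of list length in the counts below was not tested beyond the cut lists given beside them. A region open in fewer cells and a region less open in each cell cannot be told apart in sorted bulk samples. At the targeted gene, the listed Irf8 start with peaks had one in 9 libraries, both IRF8KO MDP libraries included, so the peaks do not check the genotype. Within 50 kb of Irf8, IRF8KO MDP libraries detected 14 and 17 of 31 regions and WT MDP libraries 22 and 18.

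The sorted populations were checked against marker genes. Regions at 8 stem cell genes numbered 66, 69 and 76 in LT-HSC replicate 2 and the LMPP libraries, 26 in LT-HSC replicate 1, and 14 to 37 in MDP and CDP. Regions at 6 monocyte-dendritic genes numbered 4 and 11 in LT-HSC and 18 to 25 in MDP and CDP of either genotype. Those at 5 dendritic cell genes were most numerous in CDP, with 48 and 48 of 60, and those at 4 lymphoid-primed genes numbered 21 and 25 of 40 in LMPP and 19 to 26 in MDP and CDP. Of other lineages, the 4 erythroid genes had 7 and 7 of 9 regions in LT-HSC and 2 to 4 elsewhere, and the 5 neutrophil genes had 11 or 12 of 17 in every MDP and CDP library against 3 to 6 in LT-HSC and LMPP. B cell genes had 19 and 19 of 28 regions in LMPP and 5 to 11 in the other groups, and T cell genes 8 and 8 of 13 in LMPP and 1 to 6 elsewhere. Whether cells of those lineages were among the sorted cells was not tested.

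The start sites show how the 6 genes differ, so sequences are given first where the peaks bear on them. RefSeq (build GRCm38.p6, the same assembly as mm10) lists 9 starts for these genes, and each window below runs from 250 bases before a start to 50 after it, 5′ to 3′ on the gene's strand. Of 32619 such windows genome-wide, 33.9% overlapped a peak in all 10 libraries and 48.2% in none. Windows of Stat2, Stat3, Stat6 and the downstream start of Stat5a overlapped a peak in all 10, and both Stat5b windows in 9, missing in LT-HSC replicate 1. The upstream Stat5a window overlapped a peak in 2 libraries, both of CDP. At Stat4, the upstream window (chr1:51986898-51987197, + strand) overlapped no peak in any library, and the downstream window (chr1:52007990-52008289, + strand), inside the gene, overlapped one in 2, LT-HSC replicate 2 and LMPP replicate 1. A merged region that spans the downstream start (52008030 to 52009489) was found in all 10 libraries, but in 8 of them the peak lay beyond the window, further into the gene. The upstream window holds 2 CpG dinucleotides and the downstream one 4. Of the 7516 windows genome-wide with 0 to 2 CpG, 88.1% had no peak in any library, against 69.4% of the 10831 with 3 to 9 and 11.2% of the 14272 windows with 10 or more. Both Stat4 windows are shown to compare the start without a peak with the start beside one, and capitals mark a match to an interferon-response element (ISRE), spelled GAAA, any 2 bases, GAAA.
Stat4 upstream start: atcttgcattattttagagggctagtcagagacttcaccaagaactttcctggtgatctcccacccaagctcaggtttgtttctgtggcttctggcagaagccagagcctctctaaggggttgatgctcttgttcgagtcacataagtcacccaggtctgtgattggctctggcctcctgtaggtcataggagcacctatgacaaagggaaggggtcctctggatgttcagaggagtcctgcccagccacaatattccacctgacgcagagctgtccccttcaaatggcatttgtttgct
Stat4 downstream start: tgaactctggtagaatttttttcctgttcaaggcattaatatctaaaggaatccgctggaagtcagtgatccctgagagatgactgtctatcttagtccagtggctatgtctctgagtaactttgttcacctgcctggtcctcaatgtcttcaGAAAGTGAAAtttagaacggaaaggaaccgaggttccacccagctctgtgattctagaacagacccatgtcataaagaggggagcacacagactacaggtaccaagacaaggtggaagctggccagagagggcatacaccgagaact

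The Stat2 window (chr10:128270248-128270547, + strand) is shown because 3 motifs overlap in it. STAT2 acts with IRF9 at interferon-response elements, so this gene encodes a subunit of the factor that reads one of them. The capitals cover matches, on either strand, to the ISRE from position -222, to an ETS-IRF composite (GGAA, any 2 bases, GAAA) from position -216 and to a widened STAT element (TTC, any 4 bases, GAA) from position -210, counted from the start site.
Stat2 start: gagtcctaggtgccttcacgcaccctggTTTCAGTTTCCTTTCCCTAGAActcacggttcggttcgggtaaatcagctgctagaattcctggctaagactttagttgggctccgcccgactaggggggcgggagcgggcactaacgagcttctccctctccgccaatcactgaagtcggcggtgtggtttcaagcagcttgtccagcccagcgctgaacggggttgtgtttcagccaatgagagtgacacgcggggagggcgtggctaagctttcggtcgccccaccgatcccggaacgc
Of all windows, 3.46% held the ISRE, 2.73% the ETS-IRF composite and 6.99% the widened STAT element. The other 2 motifs searched on both strands, the STAT element TTCNNNGAA (8.34% of windows) and the PU.1 element GAGGAAGT (3.22%), had no match in the 9 STAT windows. A match describes letters and not binding.

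Stat5a and Stat5b lie back to back on chromosome 11 and encode closely related proteins. Their starts share sequence: the downstream Stat5a window (chr11:100860234-100860533, + strand) and the downstream Stat5b window (chr11:100822521-100822820, - strand) hold an ungapped stretch of 65 bases with 58 identical (89.2%). Capitals mark the identical bases, and both starts lay in regions detected in at least 9 libraries.
Stat5a: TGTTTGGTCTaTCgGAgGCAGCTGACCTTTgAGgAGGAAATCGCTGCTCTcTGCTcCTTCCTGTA
Stat5b: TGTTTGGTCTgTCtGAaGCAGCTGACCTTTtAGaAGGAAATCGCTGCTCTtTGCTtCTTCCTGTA

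The 92 regions were spread unevenly over the genes. Counted once, by the STAT gene that holds or lies nearest to each, 18 belonged to Stat2, 14 to Stat3, 22 to Stat4, 1 to Stat5a, 18 to Stat5b and 19 to Stat6. The windows of Stat3, Stat5a and Stat5b overlap, and 18 regions lay in more than 1 window. Of the 92, 39 lay inside a STAT gene, 31 inside another gene and 22 between genes. Found in all 10 libraries were 23 (25.0%), where 17% of all merged regions were, and 10 were found in 1 library (10.9%; 19.1% of all regions). For 53 of the 92, no comparison gave a call.

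**Figure D1:**
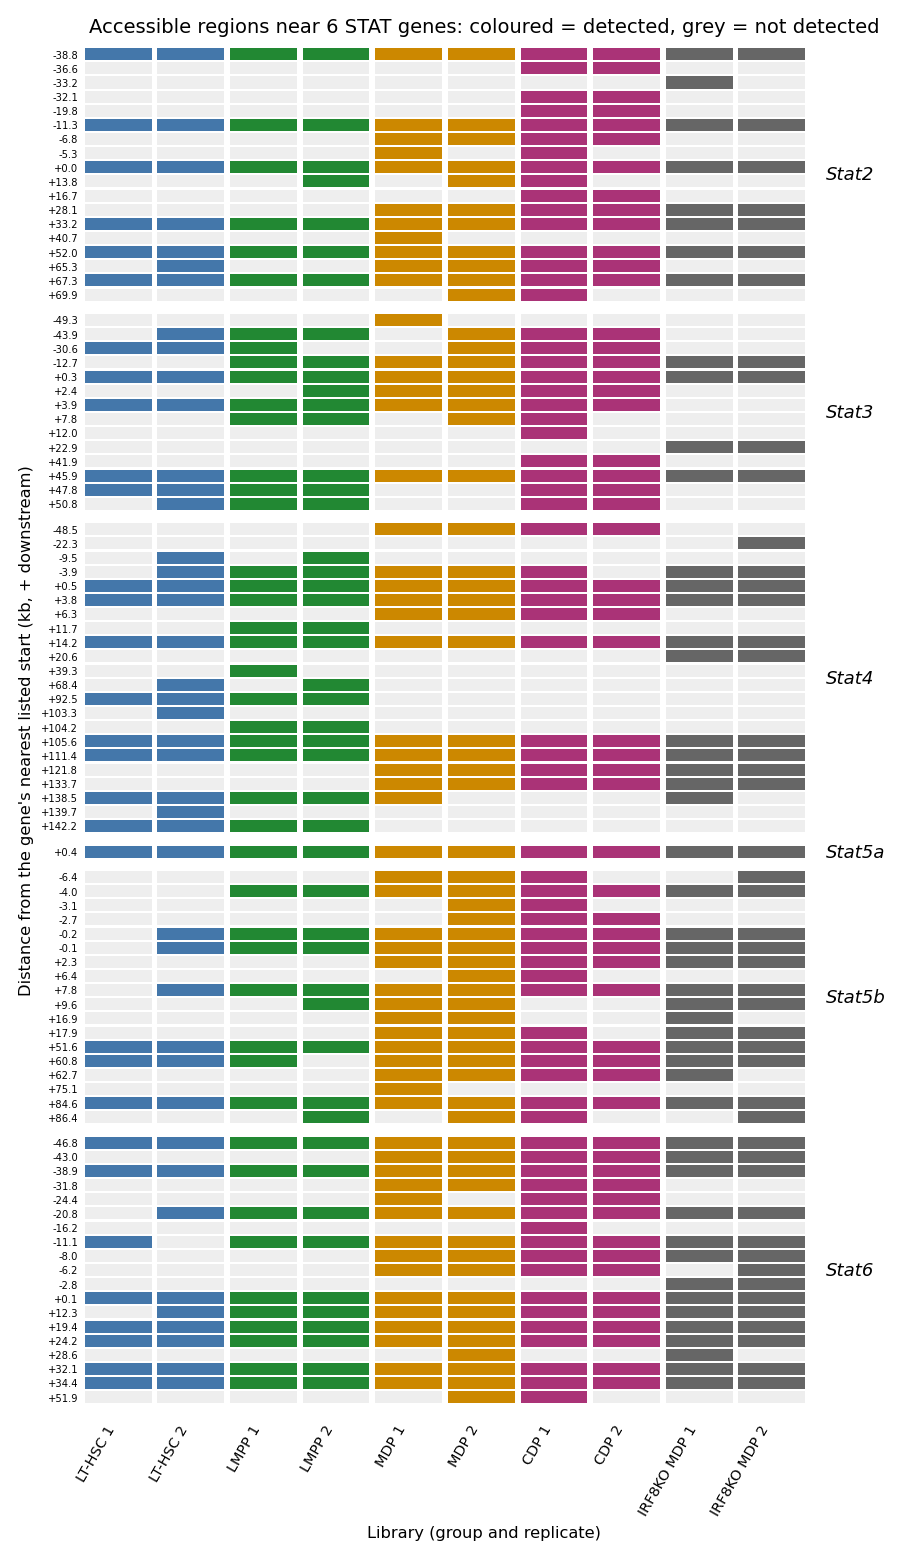
Detection of each of the 92 regions (one line each, labelled by its distance in kb from the nearest listed start of its gene) in the 10 libraries, coloured where a peak overlapped (dark grey for IRF8KO MDP) and pale grey where none did. Stat6 and Stat5b fill in between LMPP and MDP, whereas several Stat4 regions are coloured in LT-HSC and LMPP alone.

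The number of STAT regions detected was 31 and 43 in the LT-HSC libraries, 45 and 48 in LMPP, 58 and 63 in WT MDP, 71 and 58 in CDP, and 49 and 48 in IRF8KO MDP. The LT-HSC and LMPP libraries were all below the WT MDP and CDP libraries, and so were the knockout libraries, 1 of which tied with an LMPP library at 48. Means were 37.0 ± 8.49 (SD, n = 2), 46.5 ± 2.12, 60.5 ± 3.54, 64.5 ± 9.19 and 48.5 ± 0.71 in the same order. Exact two-sided permutation tests of 5 comparisons gave p = 0.333 (adjusted 0.417) except for MDP to CDP (p = 1.00), and 0.333 is the smallest p that 2 against 2 libraries allow. As a share of the 92, the WT MDP libraries detected 63.0% and 68.5%, where they detected 52.4% and 54.2% of all merged regions. The LMPP libraries detected 48.9% and 52.2%, where they detected 53.8% and 54.6% of all regions. For the IRF8KO MDP libraries the shares were 53.3% and 52.2%, against 42.5% and 45.8% of all regions. Shares in LT-HSC were 33.7% and 46.7% against 26.4% and 44.3%, and in CDP 77.2% and 63.0% against 59.7% and 55.9%. The LMPP libraries alone detected a smaller share of the 92 than of all regions. Knockout counts were thus below WT MDP for STAT regions and for all regions alike.

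**Figure D2:**
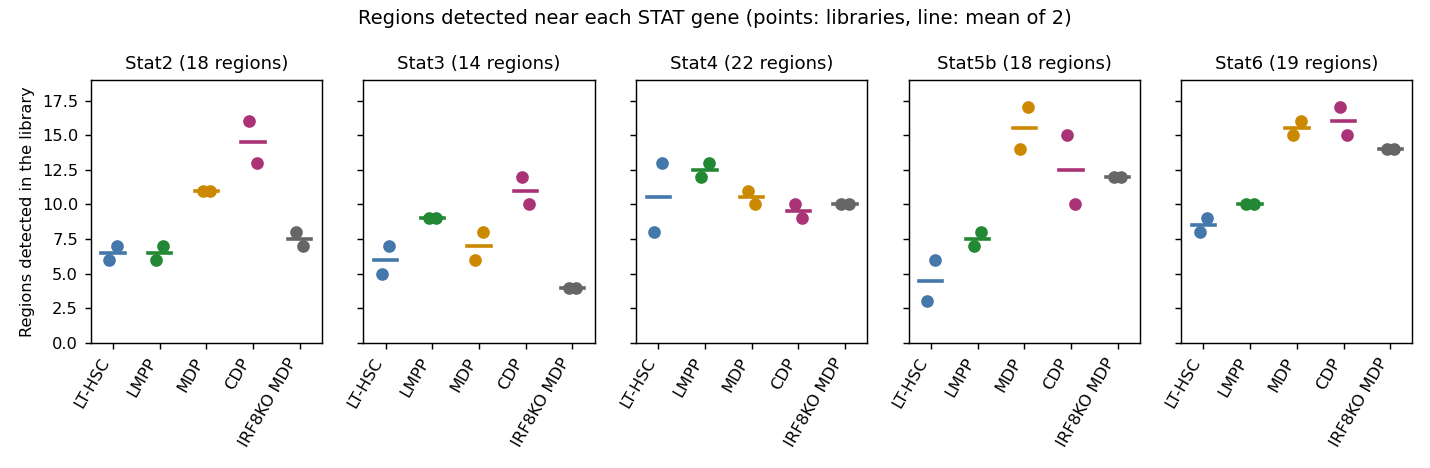
Regions detected near each STAT gene (y axis, count) by group, with a point for each library and a line at the mean of 2; Stat5a has 1 region and is not drawn. Stat2, Stat5b and Stat6 rise from LMPP to MDP, Stat3 is lowest in IRF8KO MDP, and Stat4 stays between 8 and 13.

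Below, gained means present in both libraries of the group named second and absent from both of the one named first, and lost means the opposite. From LT-HSC to LMPP, few STAT regions changed: 5 of 92 were gained (5.43%) where 12.7% of all regions were, and 0 were lost where 1.62% were. At Stat4, a region 11.7 kb into the gene from the downstream start (chromosome 1, 52019541 to 52020402) and one 104.2 kb from it were gained. Both were found in no group but LMPP, a pattern of 2 of the 92 (2.17%) and of 3.78% of all regions. By row order, the region at 11.7 kb stood 46.7% and 34.7% down the LMPP lists and the one at 104.2 kb 96.3% and 99.5%. At Stat3, regions at 7.8 and -12.7 kb from the start were gained. At Stat5b, a region at -4.0 kb from the downstream start (chromosome 11, 100826012 to 100827185) was gained, and all later groups detected it too. With the 4 lists cut to the shortest by row order, 3 were gained (3.26%, against 4.32% of all regions) and 5 lost (5.43% against 3.47%), and the difference in STAT regions per library turned from 9.5 to -5.5. Of the 5 gains named above, 1 kept its call, the one at 11.7 kb. Gains numbered 13 when LT-HSC replicate 2 was left out (14.1%, against 23.6% of all regions) and 9 when LMPP replicate 1 was (9.78% against 18.5%). With LT-HSC replicate 1 left out, 3 were lost (3.26% against 6.76%).

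From LMPP to MDP, 16 of 92 STAT regions were gained (17.4%) where 10.3% of all regions were, and 6 were lost (6.52%) where 10.6% were. Gains lay at Stat5b (5), Stat6 (4), Stat4 (4) and Stat2 (3), and at Stat3 there were none, with 2 losses. The other 4 losses were at Stat4. With the 4 lists cut to equal length, 16 were gained (17.4%, against 10.2% of all regions) and 5 lost (5.43% against 10.3%), and the 16 gained were the same regions. With all 10 lists cut to the 31325 peaks of the shortest, 4 were gained and 2 lost, and 2 of the 16 gains kept their call. The share gained was then 4.35% against 5.75% of all regions, so the STAT regions were no longer above all regions.

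**Figure D3:**
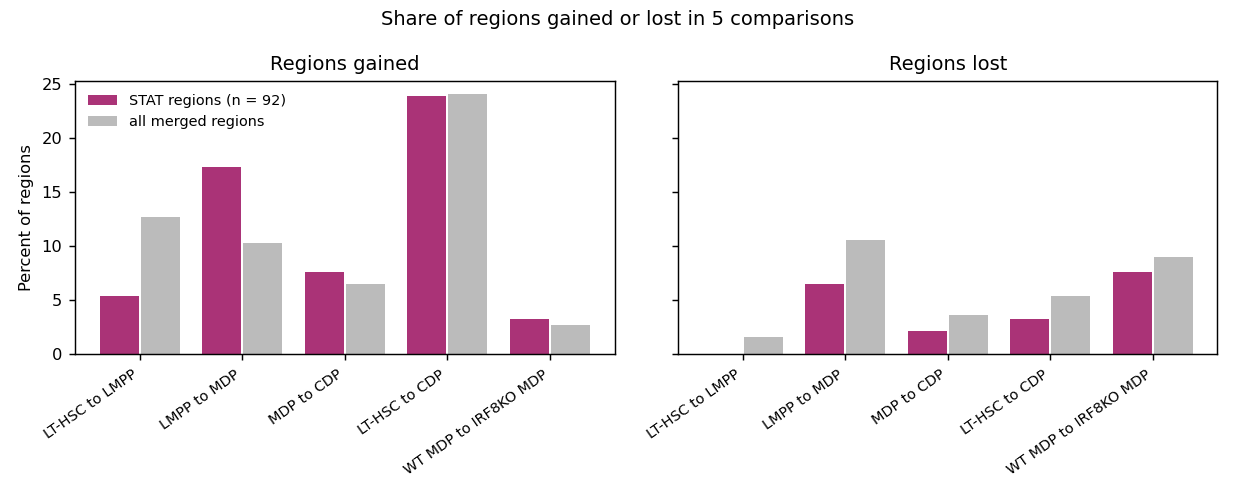
Percent of the 92 STAT regions and of all 114366 merged regions that were gained (left) or lost (right) in each comparison. STAT regions exceed all regions among those gained from LMPP to MDP (17.4% against 10.3%) and fall below among those gained from LT-HSC to LMPP (5.43% against 12.7%). With all lists cut to the shortest, the first of these turned to 4.35% against 5.75%.

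Stat5b gained regions on both sides of its 2 starts. Of its 18 regions, 3 and 6 were detected in LT-HSC, 7 and 8 in LMPP, 14 and 17 in WT MDP, 15 and 10 in CDP, and 12 and 12 in IRF8KO MDP. LT-HSC and LMPP did not overlap with the other groups. How many genes genome-wide share this order was not counted, here or for the other STAT genes below. The regions gained in MDP lay at 2.3, 16.9, 17.9 and -6.4 kb from the nearest start inside the gene, and at 62.7 kb, inside Kcnh4, a potassium channel gene. The region at 2.3 kb (100847886 to 100848613) was found in all 6 MDP and CDP libraries and in no LT-HSC or LMPP library, a pattern of 6 of the 92 and of 2.19% of all regions. By row order, these 5 stood 49.0% to 98.3% of the way down the lists that held them. Whether row order follows strength is not stated in the lists and is assumed here. From MDP to CDP, Stat5b lost the regions at 16.9 and 9.6 kb, both detected in at least 1 IRF8KO MDP library. A region at -2.7 kb (100852926 to 100853681) was found in both CDP libraries, in WT MDP replicate 2 and in no other library.

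**Figure D4:**
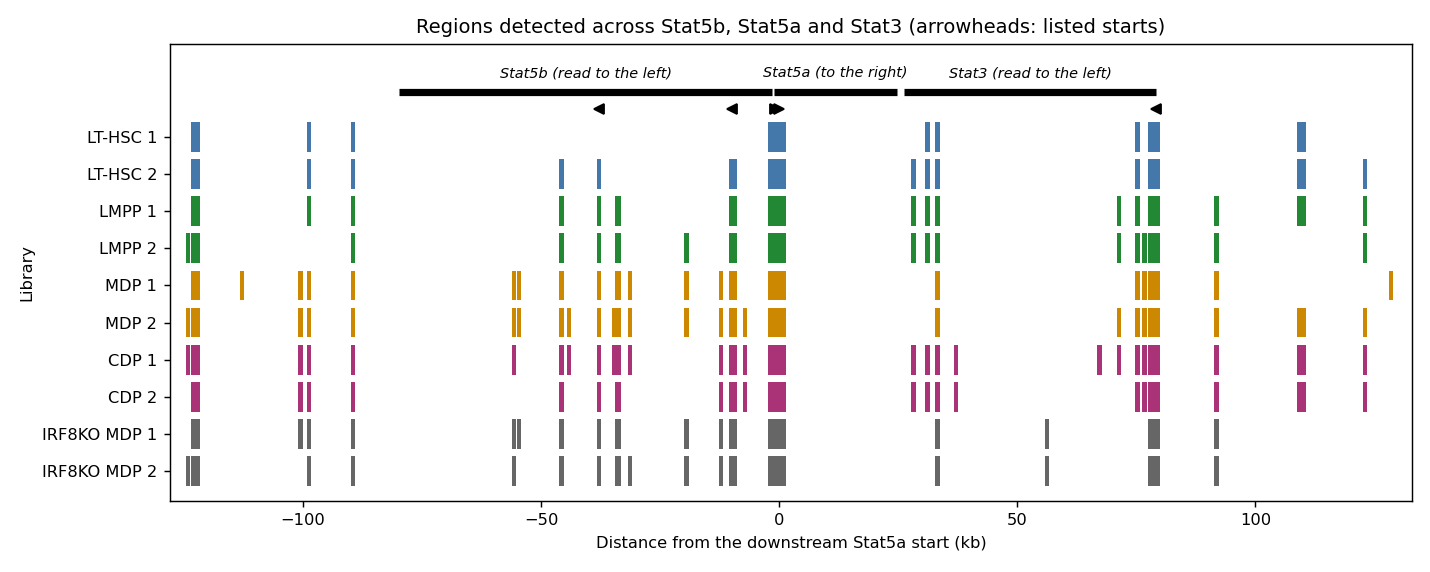
Regions detected in each library across Stat5b, Stat5a and Stat3, by distance in kb from the downstream Stat5a start; bars show the merged region and are drawn at least 0.9 kb wide, black bars are gene spans and arrowheads listed starts. Regions inside Stat5b appear in MDP, while 2 regions at the downstream end of Stat3 are missing in all 4 MDP libraries.

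At Stat5a, the region over the starts (chromosome 11, 100858199 to 100861935) was found in all 10 libraries and changed in width. Peaks covered 759 and 708 bp of it in LT-HSC, 1030 and 987 in LMPP, 1538 and 2333 in WT MDP, 3584 and 3714 in CDP, and 1009 and 1596 in IRF8KO MDP. The CDP libraries exceeded all others, and the 4 early libraries lay below WT MDP. How many of the 19483 regions found in all libraries share this order was not counted. Over those regions, the median covered width was 768 and 1084 bp in LT-HSC, 1144 and 1169 in LMPP, and 1157 and 1089 in WT MDP. It was highest in CDP, at 1357 and 1302, and was 964 and 1050 in IRF8KO MDP. The CDP libraries were also the deepest, and the part of depth in the widths was not tested. Both CDP peaks reached the upstream Stat5a start, which no other library's peak did. Stat6's start, by comparison, was covered over 2547 to 2833 bp in every library. The Stat5a region was singled out after its values were seen.

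**Figure D5:**
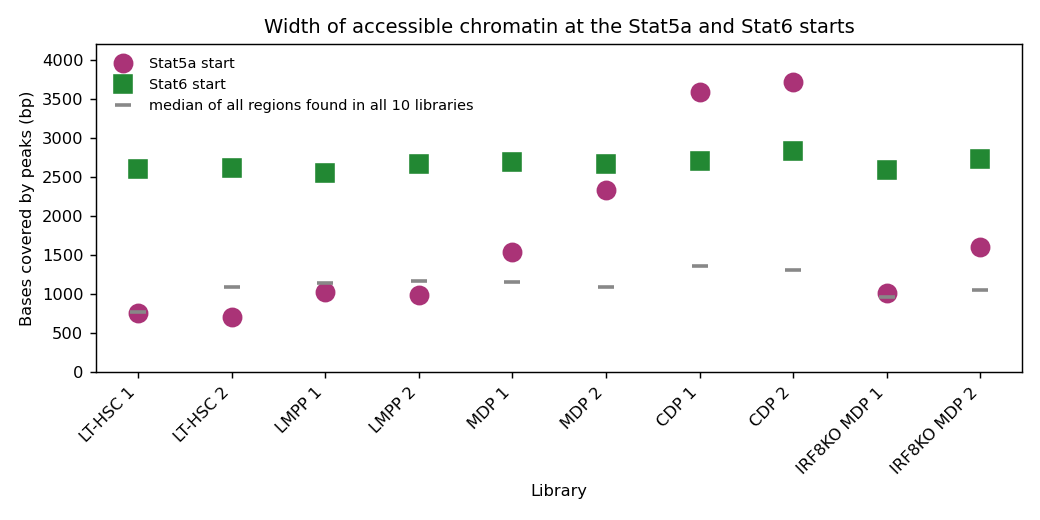
Bases covered by peaks (y axis, bp) in the region over the Stat5a start and over the Stat6 start in each library, with the median over all 19483 regions found in all 10 libraries as a dash. Stat5a goes from 759 and 708 bp in LT-HSC to 3584 and 3714 bp in CDP, and Stat6 lies between 2547 and 2833 bp throughout.

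Stat6 had its changes upstream of the gene, in and beside the lipoprotein receptor gene Lrp1. Of its 19 regions, 8 and 9 were detected in the LT-HSC libraries, 10 and 10 in LMPP, 15 and 16 in WT MDP, 17 and 15 in CDP, and 14 and 14 in IRF8KO MDP. Every MDP and CDP library exceeded every LT-HSC and LMPP library, and the share of all genes with this order was not counted. The 4 regions gained in MDP lay at -43.0, -31.8, -8.0 and -6.2 kb, the first pair inside Lrp1. The regions at -43.0 kb (chromosome 10, 127599367 to 127600671) and -8.0 kb (127634362 to 127635614) were found in all 6 MDP and CDP libraries. From LT-HSC to CDP, 5 regions were gained at Stat6 and 0 lost, the fifth at -24.4 kb inside Lrp1. Stat6 had 7 regions in all 10 libraries, among them its start and a region at 24.2 kb.

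Stat2 gained regions in 2 steps. Its 18 regions were detected 6 and 7 times in LT-HSC, 6 and 7 in LMPP, 11 and 11 in WT MDP, 16 and 13 in CDP, and 8 and 7 in IRF8KO MDP. The WT MDP and CDP libraries lay above all others, and the share of all genes with this order was not counted. Those gained in MDP lay at -6.8 kb (chromosome 10, 128263025 to 128264379), at 28.1 kb (128297848 to 128299352) and at 65.3 kb. The region at 28.1 kb stood 15.8% to 41.1% down the lists of all 6 MDP and CDP libraries. In CDP, 4 more were gained: 3 inside Timeless, a circadian and replication gene, at -36.6, -32.1 and -19.8 kb, and 1 inside Stat2 at 16.7 kb. With 1 at Stat3, 5 of the 92 STAT regions (5.43%) were found in CDP alone, where 4.62% of all regions were. The 4 at Stat2 stood 73.0% to 98.2% down the CDP lists, and the 2 at -36.6 and -19.8 kb were not called with the 4 lists cut to equal length. The CDP libraries were also the deepest, and the part of depth was not tested.

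Stat3 had another order. Its 14 regions were detected 5 and 7 times in LT-HSC, 9 and 9 in LMPP, 6 and 8 in WT MDP, 12 and 10 in CDP, and 4 and 4 in IRF8KO MDP. CDP libraries were above and IRF8KO MDP libraries below every other, and the share of all genes with this order was not counted. Near the downstream end of the gene, regions at 47.8 kb (chromosome 11, 100891202 to 100892199) and 50.8 kb (100888180 to 100889324) were lost from LMPP to MDP and gained again in CDP, and no MDP library of either genotype detected them. This pattern, both LMPP and both CDP libraries and none of 4 MDP, held for 2 of 92 STAT regions and for 0.657% of all regions. The region at 45.9 kb between them and the start was found in all 10 libraries. Another gain in CDP, at 41.9 kb (100897165 to 100898106), was found in no other group and stood 44.1% and 50.8% down its lists. The start itself (100938036 to 100940369) stood within the first 8.7% of every list.

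Stat4 gained 4 regions and lost 4 from LMPP to MDP, where it gained 2 and lost 0 from LT-HSC to LMPP and had 0 of either from MDP to CDP. Its 22 regions were detected 8 and 13 times in LT-HSC, 12 and 13 in LMPP, 11 and 10 in WT MDP, 10 and 9 in CDP, and 10 and 10 in IRF8KO MDP, and the LT-HSC libraries spanned the values of all other groups. Both LMPP libraries lay above the MDP and CDP libraries of either genotype, and the share of all genes with this order was not counted. Losses in the gene and just beyond it were at 11.7, 92.5 and 104.2 kb from the downstream start, and the fourth lay inside the next gene. With the 4 lists cut to equal length, the loss at 104.2 kb was not called. The region at 92.5 kb (chromosome 1, 52100443 to 52100985) was found in all 4 LT-HSC and LMPP libraries and in no other. This pattern held for 2 of 92 STAT regions (2.17%) and for 2.01% of all regions. Gains were at -48.5 kb from the upstream start (51938303 to 51938935) and 6.3 kb from the downstream one (52014199 to 52014916), with 2 more inside the next gene. Of the 22, 6 lay inside the next gene downstream, 1 of them found in all 10 libraries, and those are counted here and not described one by one. Inside Stat4, regions at 0.5, 3.8 and 14.2 kb were found in all 10 libraries.

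From MDP to CDP, 7 of 92 regions were gained (7.61%) where 6.48% of all regions were, and 2 were lost (2.17%) where 3.64% were. Stat2 had 4 of the gains, Stat3 3, and Stat5b both losses. Without CDP replicate 1, the difference in STAT regions per library turned from 4.0 to -2.5 and 5 were lost (5.43%, against 5.54% of all regions), and without WT MDP replicate 2, 6 were lost (6.52% against 6.12%). Between the ends of the series, LT-HSC to CDP, 22 were gained (23.9%) where 24.1% of all were, and 3 were lost (3.26%) where 5.4% were. At equal length of the 4 lists, 8 were gained (8.70%, against 9.10% of all regions) and 6 lost (6.52% against 7.67%). Without CDP replicate 2, 34 were gained (37.0% against 30.3%), and without LT-HSC replicate 1, 7 were lost (7.61% against 14.3%).

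Between WT MDP and IRF8KO MDP, 7 STAT regions were lost (7.61%) and 3 gained (3.26%), close to the 8.99% and 2.69% of all regions. Losses fell on Stat2 (2), Stat3 (2), Stat4 (2) and Stat6 (1), and Stat5b had 0 of either. Of the 7 lost, 4 were open in each WT MDP and CDP library and in none of the other 6. They were Stat2 at -6.8 kb, Stat4 at -48.5 and 6.3 kb, and Stat6 at -31.8 kb. This pattern held for 4 of 92 STAT regions (4.35%) and for 3.89% of all regions. Over all regions, 10283 were lost, and 4447 of them had the pattern. The Stat3 region at 3.9 kb (100935294 to 100935989) was detected in all 8 wild-type libraries and in neither IRF8KO MDP library. That held for 1 of 92 STAT regions (1.09%) and for 0.482% of all regions. A second Stat3 region at 2.4 kb and one at Stat2 at 65.3 kb were also lost. With the 4 lists cut to equal length, 3 losses kept their call (3.26% were lost, against 5.65% of all regions), at -6.8 kb (Stat2), -48.5 kb (Stat4) and -31.8 kb (Stat6), and the difference in STAT regions per library turned from -12.0 to 2.0. Without WT MDP replicate 1, 16 were lost (17.4%, against 13.6% of all regions), and without replicate 2, 12 (13.0% against 12.9%).

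The 3 regions gained in IRF8KO MDP were found in no wild-type library. This pattern held for 3 of 92 STAT regions (3.26%) and for 1.76% of all regions. Over all regions, 3073 were gained, and 2014 of them had the pattern. The 3 STAT regions lay inside Stat3 at 22.9 kb (100916228 to 100917061), inside Stat4 at 20.6 kb (52028421 to 52029324) and at -2.8 kb from Stat6 (127639909 to 127640441). The Stat3 region stood 35.7% and 37.9% down the 2 knockout lists, the Stat6 region 51.7% and 61.0%, and the Stat4 region 89.6% and 49.7%. All 3 kept their call when the 4 lists were cut to equal length, but with all 10 lists cut to the shortest the Stat3 region alone did, and 0 of the 7 losses kept theirs. Of the 16 regions gained from LMPP to WT MDP, 7 were detected in both IRF8KO MDP libraries, 4 in 1 and 5 in neither, where 40.9% and 46.5% of all regions so gained were in both and in neither. In CDP, 13 of the 16 were in both libraries and 1 in neither, against 73% and 16.8%.

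Other genes of the pathway were described by 62 genes listed by role, all matched in the annotation. For no role was the share of all genes with a net gain or loss counted. Over all merged regions, 14520 were gained and 1852 lost from LT-HSC to LMPP, and 11735 gained and 12125 lost from LMPP to MDP. In IRF8KO MDP against WT MDP, 3073 were gained and 10283 lost. The 4 Janus kinases had 83 regions within 50 kb. From LT-HSC to LMPP, 12 of them were gained (14.5%, where 12.7% of all regions were) and 1 lost, and all 4 genes had a net gain. Jak1, the kinase of interferon and gp130 receptors, gained 7 of 30 in that step and lost 4 from LMPP to MDP, with 12 and 17 detected in LT-HSC and 26 and 23 in LMPP. Jak2, the kinase of the erythropoietin, thrombopoietin and GM-CSF receptors, gained 1 of 10 and then 3, and was detected at 4 and 5 regions in LT-HSC and 10 and 10 in CDP. Jak3, which pairs with the common gamma chain, gained 4 of 24 from MDP to CDP, and Tyk2, the partner of interferon and interleukin-12 receptors, lost 2 of 19 in IRF8KO MDP. From MDP to CDP, the kinases gained 7 of 83 (8.43%, where 6.48% of all regions were gained). From WT MDP to IRF8KO MDP, 0 of the 83 were gained and 6 lost (7.23%, where 8.99% of all regions were).

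Inhibitors of the pathway, 18 genes with 284 regions, gained 39 (13.7%, where 10.3% of all regions were gained) and lost 20 (7.04%, where 10.6% were lost) from LMPP to MDP, and 10 genes had a net gain and 5 a net loss. Ptpn1, a phosphatase that acts on Janus kinases, gained 6 of 26 in that step, and Socs3, a feedback inhibitor of gp130 and G-CSF signals, 5 of 21. Cish, a STAT5 target that dampens STAT5 signals, gained 3 of 21, and Socs6 gained 4 of 15 and lost 6 in IRF8KO MDP. There the inhibitors lost 24 of 284 (8.45%, against 8.99% of all regions). Cytokine receptors, 29 genes with 433 regions, gained 54 (12.5%, where 12.7% of all regions were gained) from LT-HSC to LMPP. They lost 2 (0.462%, where 1.62% of all regions were lost). In that step 22 genes had a net gain and 1 a net loss, a split not counted over all genes. Il7r, the interleukin-7 receptor of lymphoid progenitors, gained 5 of 16, Ifnar1, a chain of the type I interferon receptor, 4 of 20, Il10ra, a chain of the interleukin-10 receptor, 3 of 24, and Kit, the stem cell factor receptor, 3 of 21. Kit then lost 5 in IRF8KO MDP, where the receptors lost 30 of 433 (6.93%, against 8.99% of all regions). Partners and targets, 11 genes with 168 regions, had 1 gained and 19 lost (11.3%, where 8.99% of all regions were lost) from WT MDP to IRF8KO MDP, with 8 genes at a net loss and 0 at a net gain. Among these, Bcl2l1, a survival gene, Bcl6, a repressor that shares sites with STAT factors, and Osm, a cytokine induced by STAT5, lost 3 each, and Cdkn1a, a cell cycle inhibitor, 2. These were named for their number of calls over all comparisons. Ncoa1, not among them, lost 4 of 17. Over the 62 genes, the median net change per gene was 1.0, 0, 1.0, 4.0 and -1.0 regions for LT-HSC to LMPP, LMPP to MDP, MDP to CDP, LT-HSC to CDP and WT MDP to IRF8KO MDP. The same median over all genes was not computed. Over their 968 distinct regions, 11.6%, 10.5%, 7.13%, 29.6% and 2.07% were gained in the same order, where 12.7%, 10.3%, 6.48%, 24.1% and 2.69% of all regions were. Lost were 1.24%, 6.71%, 1.65%, 3.0% and 8.16%, where 1.62%, 10.6%, 3.64%, 5.4% and 8.99% of all regions were.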

How the data were processed

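The 10 peak lists were deposited one per library. The tools named are Bowtie 1.1.2 and HOMER 4.9 and the builds mm10 and GRCm38, per the submitters' processing notes. Per the file headers, HOMER called and stitched peaks in each library alone, with peaks of 500 bp kept at least 1000 bp apart, a false discovery rate of 0.001 and at least 4-fold over the local surroundings. The deposited score is 1 in every row and was not used. The lists hold positions and no counts, so detection was compared and no count model was used. A shift of reads for the transposase is not stated in the labels or headers.

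Merging, detection and calls were written in Python 3.11.15 with numpy 2.4.6, pandas 2.3.3 and scipy 1.17.1, tested on simulated lists and checked against bedtools 2.31.1. Each call rests on 4 libraries, and 5 comparisons were made. Places come from RefSeq's starts and gene spans, and exons were not used here. Named regions were those with a call, those over a start and up to 2 per gene found in all 10 libraries, and some that this rule picks are not reported here. Pathway genes named were the kinases and, per other role, the 4 with the most calls. Alternatives changed the overlap, list length, distance and libraries used. Members and lists were chosen with earlier results of these data known.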

Additional observations from a re-analysis of the deposited data

How the results depend on the processing

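Requiring that a peak overlap by a set share of its own length changed nothing by construction, since each peak lies within its merged region. With all lists cut to 31325 peaks, STAT regions gained and lost were 3 and 5 from LT-HSC to LMPP, 4 and 2 from LMPP to MDP, 4 and 1 from MDP to CDP, 8 and 6 from LT-HSC to CDP, and 3 and 1 from WT MDP to IRF8KO MDP. These are not all the same regions: 1 of 5, 2 of 16, 1 of 7, 6 of 22 and 1 of 3 gains kept their call. The difference in STAT regions per library became -5.5 from LT-HSC to LMPP and 4.5 from WT MDP to IRF8KO MDP, a change of sign in both. Chosen after seeing the data, lists cut to the shortest of the 4 gave 3 and 5 with a difference of -5.5, 8 and 6 for LT-HSC to CDP, and 3 lost with a difference of 2.0 for the knockout, and peaks covering at least part of the region's width (50%) gave 8 gained from LT-HSC to LMPP.

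Within 20 kb of a gene, 9 were gained from LMPP to MDP, 13 gained and 1 lost from LT-HSC to CDP, and 4 lost in the knockout. Within 100 kb, 1 was lost from LT-HSC to LMPP, and 6 were gained and 13 lost in the knockout. These follow from fewer or more regions, 63 and 146. Leaving out a library loosens the rule for a call, so calls are kept and counts can only stay or rise. Shares of all regions rise too. From LMPP to MDP, 10.3% of all regions were gained with every library and 12.1% to 14.6% with 1 left out. Leaving out 1 library, from LT-HSC to LMPP 6 to 13 were gained and 0 to 3 lost (difference 3.5 to 15.5), from LMPP to MDP 17 to 22 and 7 to 8 (11.5 to 16.5), from MDP to CDP 7 to 10 and 2 to 6 (-2.5 to 10.5, below 0 without CDP replicate 1), from LT-HSC to CDP 22 to 34 and 3 to 7 (21.0 to 34.0), and in the knockout 3 to 4 and 9 to 16 (-14.5 to -9.5). Of 155 values under alternatives, 118 stayed within a set fold of the main count or kept the sign of the main difference. Another 32 moved and 5 changed sign. The 118 include all values of the overlap setting and of the replicate block, which could not differ from the main ones by construction. The lists hold no read counts, so what depth limits is seen only through list length.

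With the replicate number as a block, an exact sign-flip permutation gave the same differences (9.5, 14.0, 4.0, 27.5 and -12.0) at p = 0.5 or 1.0, where 0.5 is the smallest p of 2 pairs. Across regions, the replicate differences of any pair of groups correlated between -0.016 and 0.013, so no shared pattern by replicate number was seen. Such correlations cannot show whether libraries of the same number were prepared together.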

Other observations

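Some regions found in all libraries differed in the width their peaks covered. These examples were picked after their values were seen. Inside Lrp1, 46.8 kb before the Stat6 start (chromosome 10, 127594234 to 127598151), peaks covered 501 and 1200 bp in LT-HSC, 1002 and 1129 in LMPP, 3414 and 2623 in WT MDP, 3910 and 3785 in CDP, and 2659 and 2478 in IRF8KO MDP. Every MDP and CDP library exceeded every LT-HSC and LMPP library. How many of the 19483 regions found in all libraries share such an order was not counted, here or for the regions below. Their median covered width ran from 768 bp in LT-HSC replicate 1 to 1357 bp in CDP replicate 1. A second Lrp1 region (127602660 to 127605497) was covered over 501 and 630 bp in LT-HSC and over 2128 to 2787 bp in the other 8 libraries. Inside Stat4, at 3.8 kb from the downstream start (chromosome 1, 52010622 to 52013457), it was 501 and 630 bp in LT-HSC, 2303 and 2281 in LMPP, and 1403 to 2093 in the later groups.

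Among 13584 protein-coding genes with enough regions, those whose number of detected regions per library followed each STAT gene most closely over the 10 libraries were Gpr35, Ifitm1 and Mapk1ip1l for Stat2 (Pearson r 0.988, 0.986 and 0.984), D5Ertd579e, Rmdn2 and Myo1h for Stat3 (0.993, 0.988 and 0.985), and Enkur, Bmpr1a and Cfap97d2 for Stat4 (0.964, 0.963 and 0.959). For Stat5b, Micall1 and Jup were among them (0.982 and 0.980), and for Stat6 they were C1qtnf9, Ndufs8 and Tcirg1 (0.997 each). For Stat5a, by the 18 regions within 50 kb, which it shares with its neighbours, they were Dlgap5, Rnasek and Rnf213 (0.990, 0.979 and 0.974). The libraries share their list length across genes: the number of all regions detected correlated with Stat3 at 0.886, with Stat5b at 0.762 and with Stat4 at 0.379. These are descriptions over 10 libraries of 5 groups.

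The distance limit of 50 kb had regions close to it on both sides. Just inside lay regions at 46.8, 47.6, 48.5 and 49.3 kb from a STAT gene, found in 10, 2, 4 and 1 libraries. Just outside lay regions at 50.3, 50.9, 51.7 and 52.1 kb, found in 3, 1, 1 and 8.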
